A study of Mus musculus with 4 samples.

Results

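The Mettl7 genes encode small membrane-bound methyltransferases, and in the mouse the family holds 3 near-identical copies side by side on chromosome 15, Mettl7a1, Mettl7a2 and Mettl7a3, and the more distant paralogue Mettl7b on chromosome 10. These 4 genes were picked by symbol from the 31227 rows of the deposited count table, and all 4 were found. They had been singled out because earlier results of the same comparison showed Mettl7a2 and Mettl7a3 among the strongest losses in the knockout, so their levels are given as a description, with no test.

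The counts came from RNA sequencing of colonic epithelial cells of mice aged 8 to 10 weeks. All mice had drunk 3.5% dextran sulfate sodium (DSS, MW 36 to 50 kDa), which damages the lining of the colon, over 5 days, then plain water until they were killed on day 7. The WT group had 2 libraries (replicates 1 and 3) and the Smad4 KO group, from mice without epithelial Smad4, had 2 (replicates 1 and 2). The sources used here do not give the driver of the deletion, the strain, or whether libraries of a group came from separate mice, so a p-value here rests on the spread of these libraries alone, which may be technical. Mice without DSS are not analysed here. The libraries held 42577920 to 67927291 counts. Levels are in CPM, the count of a gene relative to all counts of its library, scaled so that libraries of different depth and composition can be compared. Smad4 itself fell from 166 ± 19.4 to 46.3 ± 7.34 CPM (SD, n = 2 each, edgeR adjusted p = 0.00163), in the direction of the labels in 4 of 4 libraries.

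As background, the proteins of this family use S-adenosylmethionine as the methyl donor. They sit in the membrane of the endoplasmic reticulum and on lipid droplets, the organelles in which cells store neutral fat. Both human METTL7A and METTL7B have been shown to transfer methyl groups to thiols, the sulfur groups of small molecules, among them drugs and hydrogen sulfide. The colonic epithelium meets hydrogen sulfide made by gut bacteria, and it also disposes of it through oxidation in mitochondria.

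In GENCODE M21 on GRCm38, the 3 copies lie on the plus strand of chromosome 15. Mettl7a1 (ENSMUSG00000054619) runs from 100304140 to 100328662, Mettl7a3 (ENSMUSG00000058057) from 100334929 to 100340375 and Mettl7a2 (ENSMUSG00000056487) from 100353200 to 100361840. Mettl7b (ENSMUSG00000025347) lies on chromosome 10 between 128958274 and 128960988, on the minus strand. The main transcript of each of the 4 genes has 2 exons and an open reading frame of 735 bases with its stop codon, of which the first exon holds 498 in every copy. Mettl7a2 and Mettl7a3 were the closest pair, with different bases at 7 of 735 coding positions, all 7 in the first exon. Mettl7a1 differed from Mettl7a2 at 39 positions (94.7% identity) and from Mettl7a3 at 42 (94.3%). Mettl7b shared 65.4% of aligned positions with Mettl7a1. Mettl7a2 and Mettl7a3 had the same base, and Mettl7a1 another, at 37 of the 44 coding positions that varied among the copies.

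The stretch of 90 coding bases with the most differences among the copies is shown because it sets Mettl7a1 apart from the other copies. It holds coding positions 574 to 663, in the second exon, at chr15:100313069-100313158 in Mettl7a1, chr15:100360624-100360713 in Mettl7a2 and chr15:100339298-100339387 in Mettl7a3, all on the plus strand. Capitals mark the 12 positions at which the 3 copies are not all alike.
Mettl7a1: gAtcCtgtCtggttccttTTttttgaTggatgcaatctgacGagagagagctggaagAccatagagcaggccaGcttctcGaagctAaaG
Mettl7a2: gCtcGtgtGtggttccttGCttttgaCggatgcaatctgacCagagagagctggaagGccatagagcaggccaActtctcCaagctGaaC
Mettl7a3: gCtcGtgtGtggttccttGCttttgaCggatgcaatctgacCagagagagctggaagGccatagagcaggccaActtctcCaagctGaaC
In this stretch Mettl7a2 and Mettl7a3 were the same at every base, and Mettl7a1 stood apart at all 12 capitals.

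The stretch with the fewest differences, coding positions 217 to 306 in the first exon, held 1. It lies at chr15:100305063-100305152, chr15:100353426-100353515 and chr15:100335146-100335235 in the same order of genes.
Mettl7a1: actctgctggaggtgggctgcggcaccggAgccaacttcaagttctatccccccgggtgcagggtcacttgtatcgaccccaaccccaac
Mettl7a2: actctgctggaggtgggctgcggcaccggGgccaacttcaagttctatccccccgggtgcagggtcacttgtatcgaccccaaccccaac
Mettl7a3: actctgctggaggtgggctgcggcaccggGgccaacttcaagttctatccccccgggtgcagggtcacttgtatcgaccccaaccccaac
A read of this length from the latter stretch can be placed in Mettl7a1 or outside it by its 1 capital alone, and it cannot tell Mettl7a2 from Mettl7a3.

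The share of each main transcript that belongs to its gene alone was counted with windows of fixed length moved by 1 base, since no source used here gives the read length. With windows of 100 bases, 92.6% of those of Mettl7a1 were found in transcripts of no other gene of GENCODE M21, against 68.1% for Mettl7a3, 46.6% for Mettl7a2 and 100% for Mettl7b. Mettl7a2 shared 29.2% of its windows with Mettl7a3 and 8.05% with Mettl7a1. It also shared 24.1% with Methig1, a longer gene annotated over all 8641 bases of Mettl7a2, which joins the first exon of Mettl7a2 to exons further along the chromosome. Mettl7a3 shared 31.9% of its windows with Mettl7a2 and 0.515% with Mettl7a1. With windows of 50 bases the shares found in no other gene were 75.2% for Mettl7a1, 51.3% for Mettl7a3 and 34.9% for Mettl7a2, and with 150 bases they were 99.2%, 73.7% and 54.9%. At 50 bases Mettl7a2 shared 39.1% of its windows with Mettl7a3 and 23.9% with Mettl7a1. Reads from shared windows could be counted under any of these genes, more so between Mettl7a2 and Mettl7a3 than with Mettl7a1 at each of the 3 lengths, and the single values of the copies are uncertain for that reason.

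**Figure D1:**
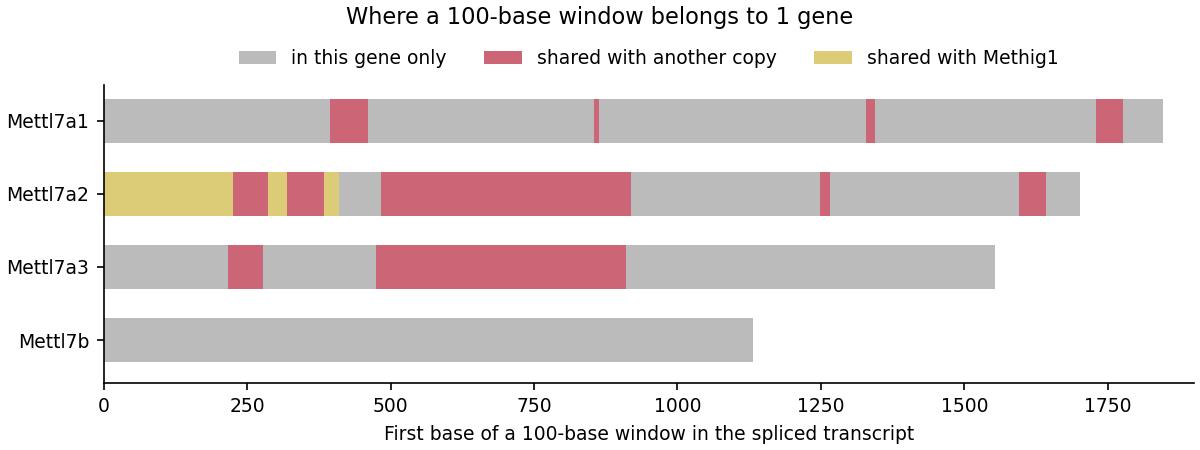
Each bar is the main transcript of a gene, with the first base of a 100-base window on the horizontal axis and the colour giving whether that window occurs in transcripts of other genes. Windows of Mettl7a1 are its own at 92.6% of positions, while those of Mettl7a2 are at 46.6%, with the shared part in the middle of Mettl7a2 and Mettl7a3 and a part shared with Methig1 at the start of Mettl7a2.

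Mettl7a2 was counted in both WT libraries and in neither KO library. It had 647 counts in WT replicate 1 and 425 in WT replicate 3, against 0 and 0 in the KO libraries, which were deeper. These were 11.4 and 9.75 CPM in WT. With a floor of 3 counts over the KO group, which is 0.0237 CPM and covers counting error only, Mettl7a2 was at least 447-fold lower in KO. The bound was 234 without Smad4 KO replicate 1 and 212 without Smad4 KO replicate 2, because a floor over fewer counts is higher. In bulk samples, fewer cells that express a gene and less RNA per cell cannot be told apart.

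Mettl7a3 had 498 and 512 counts in the WT libraries, 8.78 and 11.7 CPM. It had 0 counts in Smad4 KO replicate 1 and 4 counts, 0.0600 CPM, in Smad4 KO replicate 2. The 4 counts over the KO group stood for 0.0315 CPM, with an exact Poisson 95% interval of 0.00859 to 0.0808 CPM that covers counting error only. The WT mean was 10.3 ± 2.1 CPM and the KO mean 0.0300 ± 0.0424 CPM (SD, n = 2 each), a ratio of 342, which was 171 without Smad4 KO replicate 1. Added up, which removes any trade of reads between the pair, Mettl7a2 and Mettl7a3 had 1145 and 937 counts in WT and 0 and 4 in KO. In CPM these were 20.2 and 21.5 in WT, closer together than either gene alone, and 0 and 0.0600 in KO.

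Complete loss of this kind was rare in the table. Of 10328 genes with at least 5 CPM in both WT libraries, 3 (0.0290%) were under 0.1 CPM in both KO libraries. Mettl7a2 and Mettl7a3 were 2 of the 3, by the values that had singled them out. The other was the gene model Gm20441 on chromosome 10, which fell from 9.49 and 5.07 CPM to 0 counts. It was chosen after its values were seen. The reverse, at least 5 CPM in both KO libraries and under 0.1 CPM in both WT libraries, held for 3 of 10448 genes (0.0287%), none of them a Mettl7 gene.

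Mettl7a1 stood at 72.7 and 75.2 CPM in WT, against 47.2 and 54.9 CPM in KO. Both KO libraries lay below both WT libraries, as they did for 28.4% of all tested genes. The WT mean was 74.0 ± 1.75 CPM and the KO mean 51.1 ± 5.47 CPM, 1.45-fold lower (log2 fold change -0.53). Without a library in turn the log2 fold change lay between -0.65 and -0.42, so it kept its direction in those 4 fits. Mettl7a1 thus still had 2837 and 3665 counts in the libraries in which its neighbours of near-identical sequence had between 0 and 4.

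**Figure D2:**
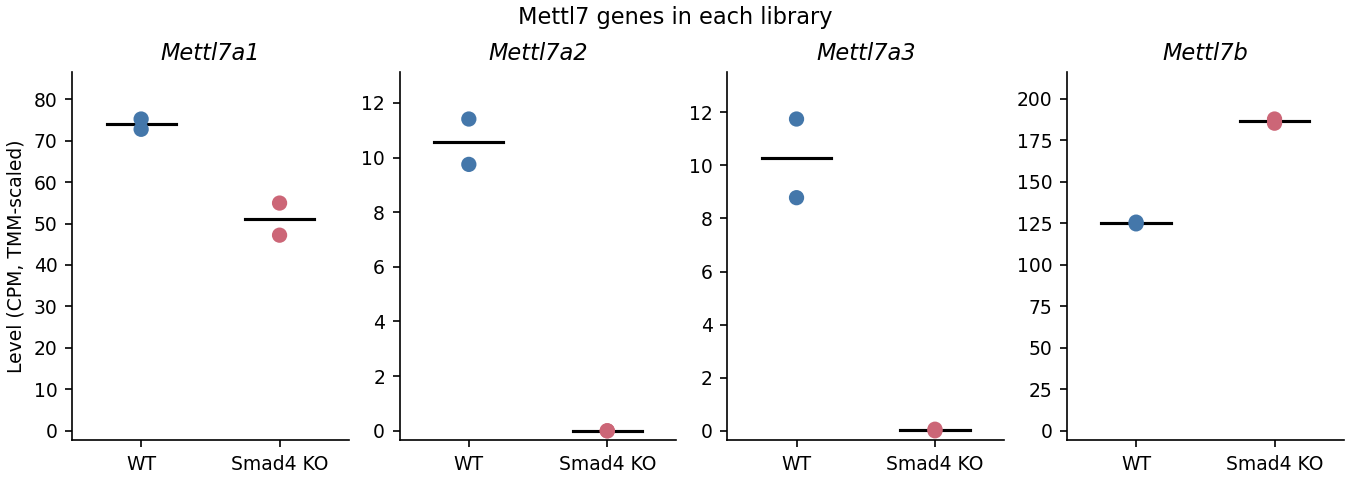
Each panel gives the level of a Mettl7 gene in CPM, with a point for each of the 2 WT (blue) and 2 Smad4 KO (red) libraries and a bar at the group mean; each panel has its own axis, which includes 0. Mettl7a2 and Mettl7a3 sit at 8.78 to 11.7 CPM in WT and at or near 0 in KO, Mettl7a1 is lower in KO and Mettl7b is higher in KO, with no overlap between the groups.

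The 3 copies were also added into a single row and the whole table was fitted again. The sum had 92.9 and 96.7 CPM in WT and 47.2 and 55.0 CPM in KO, a mean of 94.8 ± 2.67 against 51.1 ± 5.52 CPM (SD, n = 2 each). It was 1.86-fold lower in KO (log2 fold change -0.89), a larger drop than that of Mettl7a1 because the other copies were missing from it. Adding Methig1 as well gave a log2 fold change of -0.92. Any trade of reads among the 3 rows leaves this sum as it is.

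The make-up of the sum differed between the genotypes. In WT replicate 1, Mettl7a1 took 78.3% of the 5270 counts of the 3 copies (Wilson 95% interval 77.1% to 79.4%), Mettl7a2 took 12.3% (11.4% to 13.2%) and Mettl7a3 took 9.45% (8.69% to 10.3%). In WT replicate 3 the shares were 77.8% (76.5% to 79.0%), 10.1% (9.21% to 11.0%) and 12.1% (11.2% to 13.2%) of 4216 counts. The share of Mettl7a1 was thus alike in the WT libraries, while Mettl7a2 ranked above Mettl7a3 in WT replicate 1 and below it in WT replicate 3. These are shares of counts, not corrected for exon length (2595 bases for Mettl7a1, 1804 for Mettl7a2 and 1652 for Mettl7a3). Reads that fit both Mettl7a2 and Mettl7a3 may also have moved between their rows, so the order of this pair is uncertain. In Smad4 KO replicate 1 all 2837 counts were those of Mettl7a1, which allows a share of up to 0.106% for each of the other copies. In Smad4 KO replicate 2 Mettl7a1 held 99.9% of 3669 counts, Mettl7a3 0.109% (0.0424% to 0.280%) and Mettl7a2 none, which allows up to 0.0818%. These intervals and limits cover counting error only.

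**Figure D3:**
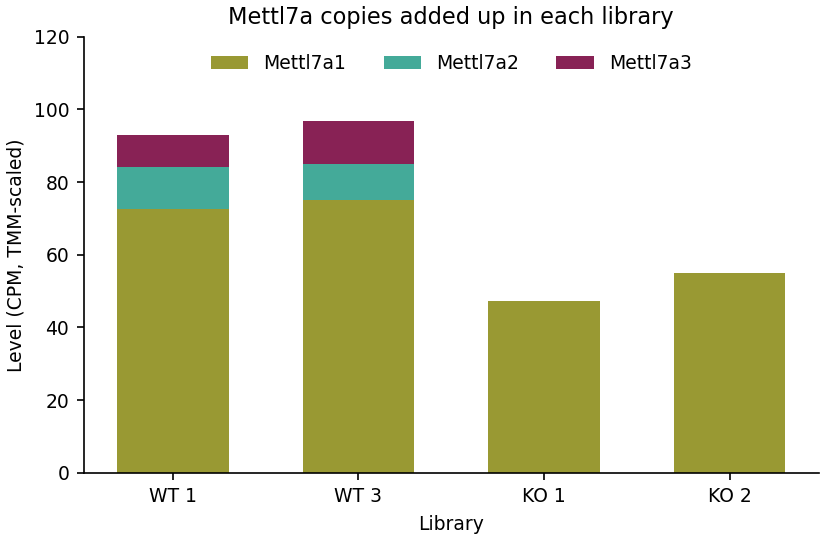
Bars give the summed level of Mettl7a1, Mettl7a2 and Mettl7a3 in CPM in each library, split by copy. The WT libraries reach 92.9 and 96.7 CPM with all 3 copies, and the KO libraries reach 47.2 and 55.0 CPM with almost nothing but Mettl7a1.

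Mettl7b moved the other way. Its levels were 125 and 126 CPM in WT, against 188 and 185 CPM in KO, with little spread inside a genotype. Both KO libraries lay above both WT libraries, as they did for 31.0% of tested genes. The WT mean was 125 ± 0.736 CPM and the KO mean 187 ± 1.77 CPM (SD, n = 2 each), 1.49-fold higher in KO (log2 fold change 0.58, and 0.56 to 0.59 without a library in turn). No window of 50 bases or more of Mettl7b occurred in another gene, so its row does not share the uncertainty of the copies.

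Levels between genes can be compared only per length, and CPM per kilobase of annotated exon is used for that. In WT the order was Mettl7b at 102, Mettl7a1 at 28.5, Mettl7a3 at 6.21 and Mettl7a2 at 5.86 CPM per kb. The WT libraries of Mettl7a2 (6.32 and 5.40) and Mettl7a3 (5.32 and 7.11) overlapped on this scale, so the order of these neighbours is not larger than their spread, while the other steps were. In KO, Mettl7b had 152, Mettl7a1 19.7, Mettl7a3 0.0181 and Mettl7a2 0 CPM per kb. Mettl7b was 3.62 and 3.53 times as high as Mettl7a1 per kb in the WT libraries and 8.40 and 7.12 times in the KO libraries, so the gap between the leading members was wider in both KO libraries. Among all tested genes, Mettl7b stood at percentile 97.3 per kb in WT and 98.3 in KO, and Mettl7a1 at 88.4 and 83.4.

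The genes whose levels over the 4 libraries were most like those of Mettl7a2 were found by the Euclidean distance between log2(CPM + 0.1) profiles, each with its own WT mean taken off, among named genes of at least 5 WT CPM. Mettl7a3 was at a distance of 0.862, Mettl7a1 at 8.77 and Mettl7b at 10.3. The 5 nearest genes outside the family were Slc37a2 (0.517), a sugar phosphate transporter, Mptx1 (1.66), a mucosal pentraxin, the homeobox gene Hoxd11 (2.00), AI854703 (2.38) and Gsdmc (2.63), a gasdermin. Slc37a2 had 226 and 224 CPM in WT and 2.43 and 2.73 CPM in KO, with 146 and 182 counts in the KO libraries. Its mean was 87.2-fold lower and that of Mptx1 238-fold lower, both smaller drops than the bound of 447 for Mettl7a2 with all libraries. That bound was 234 without Smad4 KO replicate 1 and 212 without Smad4 KO replicate 2, so the order against Mptx1 is not firm. The 0.1 CPM added before the log limits the drop that a gene without KO counts can show, so the order of distances is not an order of fold changes. Each of these 5 genes still had counts in both KO libraries. They are named for their likeness over 4 libraries only, and earlier results of these data had already placed them among strong losses.

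**Figure D4:**
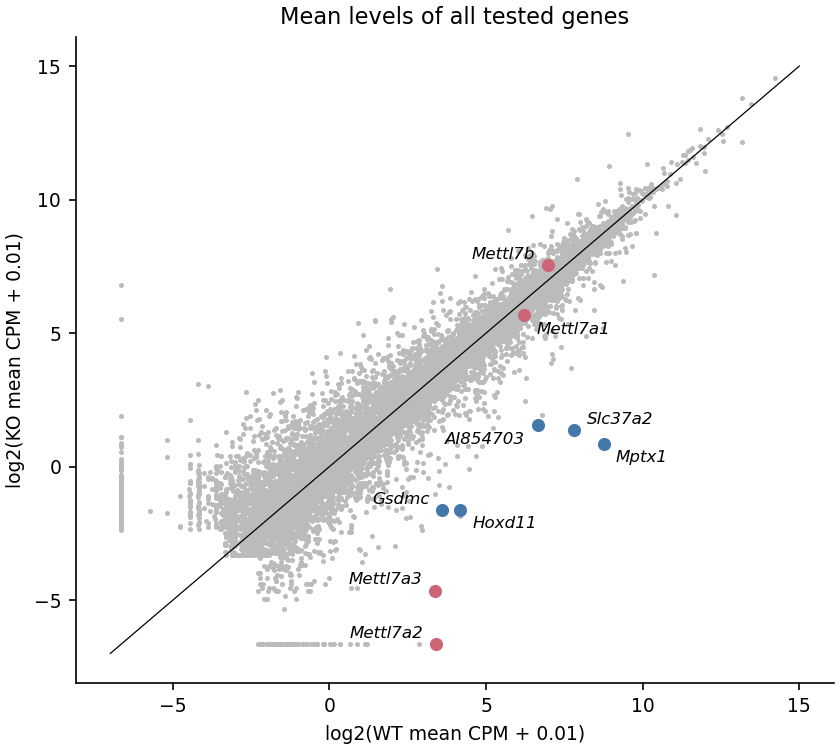
Each grey point is a tested gene, with log2(mean CPM + 0.01) in WT on the horizontal and in Smad4 KO on the vertical axis; the line marks equal levels, red points are the 4 Mettl7 genes and blue points the 5 genes most like Mettl7a2. Mettl7a2 and Mettl7a3 lie far below the line, at WT means of 10.6 and 10.3 CPM, while Mettl7a1 and Mettl7b lie close to it on either side.

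The chromosomal surroundings were examined to see how far the loss of Mettl7a2 and Mettl7a3 reached. Over all 15838 tested genes 15.2% passed the test between the genotypes (quasi-likelihood test of edgeR, p adjusted by Benjamini-Hochberg, under 0.05), 8.83% as higher in KO and 6.40% as lower. Within 250 kb of a Mettl7a copy, 10 genes were tested, of which none rose, 1 fell and 9 did not pass, a share near the background. The gene that fell was Methig1, which overlaps Mettl7a2. It had 49 and 98 counts in WT, 0.864 and 2.25 CPM, and 0 in both KO libraries, at least 65.8-fold lower (edgeR adjusted p = 0.0178). It did not pass when WT replicate 3 or Smad4 KO replicate 2 was left out (edgeR adjusted p up to 0.0660), and the counts it shares with Mettl7a2 cannot be told apart. Higd1c, the other gene at this end of the locus, had 1 count in each WT library and none in KO, too few to test.

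None of the other 9 genes within 250 kb of the copies passed. Within 500 kb, 22 genes were tested, of which 2 rose and 3 fell (22.7% called); those beyond 250 kb were Cela1 and Lima1, which fell, and Bin2 and Galnt6, which rose, named after their values were seen. The iron transporter gene Slc11a2, 26058 bases from the nearest copy, had a WT mean of 57.1 CPM and a KO mean of 54.6 CPM (edgeR adjusted p = 0.678, log2 fold change -0.07 with an SE of 0.0876). The transcription factor gene Atf1, at 42896 bases on the other side, had means of 46.0 and 46.8 CPM (log2 fold change 0.02, edgeR adjusted p = 0.896). Tmprss12, a protease gene 11074 bases away, was low in every library, with a WT mean of 0.266 CPM and a KO mean of 0.0974 CPM (edgeR adjusted p = 0.596). The 10 log2 fold changes ran from -9.46, the fitted value of Methig1, to 0.20, with a median of -0.15, against a median of 0.01 over all tested genes.

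Around Mettl7b, 3 of 13 tested genes within 250 kb rose, 1 fell and 9 did not pass (30.8% called, against 15.2% of all tested genes). Of the 28 tested within 500 kb, 3 rose and 1 fell (14.3% called), a share near the background. Itga7, a laminin-binding integrin subunit, overlaps the end of Mettl7b by 9 bases on the opposite strand and rose 2.13-fold (24.6 ± 2.18 to 52.4 ± 2.70 CPM, log2 fold change 1.09, SE 0.107, edgeR adjusted p = 0.00329). Without strand in the counting, reads in those 9 bases cannot be told apart. The matrix metalloproteinase gene Mmp19 had no count in WT and a mean of 0.730 CPM in KO, at least 24.4-fold higher over a floor of 3 counts (edgeR adjusted p = 0.0238), and it did not pass when either KO library was left out (edgeR adjusted p 0.170 at most). Gdf11, a ligand of the TGF-β family, had means of 0.494 and 1.73 CPM (edgeR adjusted p = 0.0378), and Ormdl2, a regulator of sphingolipid synthesis, 41.1 and 28.5 CPM (edgeR adjusted p = 0.0430). Gdf11 lost its call without any of the 4 libraries in turn, and Ormdl2 without WT replicate 3 and when either KO library was left out (highest edgeR adjusted p 0.225, for Ormdl2). Closer to Mettl7b than Gdf11 and Ormdl2, the tetraspanin gene Cd63 (280 and 294 CPM, edgeR adjusted p = 0.457), Bloc1s1 (edgeR adjusted p = 0.694) and the retinol dehydrogenase gene Rdh5 (edgeR adjusted p = 0.977) did not pass.

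**Figure D5:**
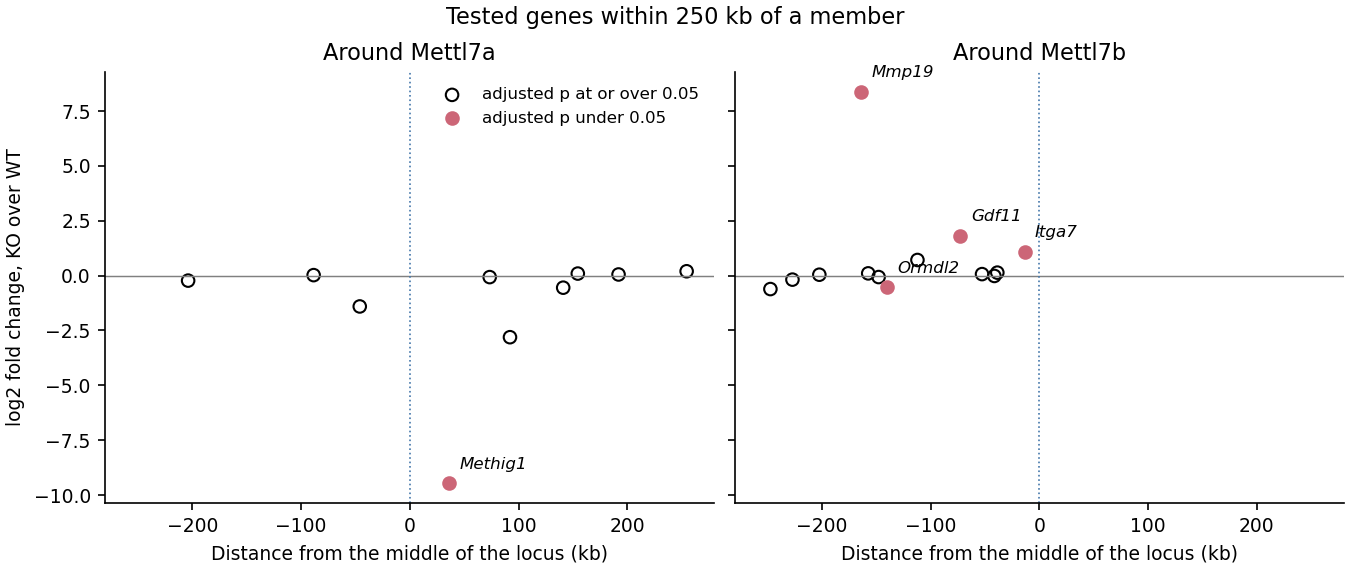
Each point is a tested gene within 250 kb of a Mettl7a copy (left) or Mettl7b (right), with the distance of its midpoint from the middle of the locus in kb on the horizontal axis and its log2 fold change (KO over WT) on the vertical axis; filled points passed the test. Methig1 alone passed around Mettl7a, and Itga7, Gdf11, Mmp19 and Ormdl2 passed around Mettl7b; the fitted values of Methig1 and Mmp19 come from a genotype with no count and depend on the prior count.

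Promoters were compared because Mettl7a1 and Mettl7a2 share most of their coding sequence but not their level. They differed in WT (means of 28.5 and 5.86 CPM per kb) as well as in KO, though reads shared with other genes leave the level of Mettl7a2 uncertain. The RefSeq promoter table, on GRCm38.p6, held 3 of the 4 members, with 250 bases before the start and 50 after it. That of Mettl7a1 is at chr15:100304567-100304866 and that of Mettl7a2 at chr15:100352950-100353249, both on the plus strand. Capitals mark runs of at least 10 aligned bases that are the same in both, which cover 52 bases of each.
Mettl7a1: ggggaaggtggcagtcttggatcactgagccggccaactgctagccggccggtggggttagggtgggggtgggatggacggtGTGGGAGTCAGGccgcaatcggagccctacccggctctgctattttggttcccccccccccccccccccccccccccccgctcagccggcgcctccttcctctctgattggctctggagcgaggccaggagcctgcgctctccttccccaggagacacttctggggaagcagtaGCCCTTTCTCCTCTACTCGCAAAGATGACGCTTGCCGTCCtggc
Mettl7a2: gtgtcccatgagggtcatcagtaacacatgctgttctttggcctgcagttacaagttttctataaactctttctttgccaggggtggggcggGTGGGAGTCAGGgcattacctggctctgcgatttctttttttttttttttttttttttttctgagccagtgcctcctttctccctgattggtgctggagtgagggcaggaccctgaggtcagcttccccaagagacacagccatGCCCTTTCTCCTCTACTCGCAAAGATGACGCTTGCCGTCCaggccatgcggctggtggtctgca
Over 347 aligned positions, 94 of them gaps, 183 bases were identical (52.7%). With only the last 120 bases of each window aligned, the share was 62.1%. Gaps count as differences in both shares, while the coding comparison (94.7%) had none, so these are not like measures. The longer capital run holds the start codon of both genes. The promoter of Mettl7a1 held 67.0% G and C, that of Mettl7a2 51.3% and that of Mettl7b 50.0%.

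Because the study deletes a Smad and its title names Yap, these 3 windows were searched on both strands for motifs of Smad proteins and of Tead, the DNA-binding partner of Yap. The palindromic Smad-binding element GTCTAGAC was in none of the 3, and in 0.213% of all 32851 promoters of the table. The GC-rich Smad motif, letters GGCGCC, was in the window of Mettl7a1 and in neither of the others, against 11.9% of all promoters. The Tead motif CATTCC was in none of the 3, against 14.7% of all. The motifs do not overlap each other. A match is a run of letters and not a site, and no match says only that the letters are not in these windows.

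Other genes that carry the METTL name mostly did not differ. Among 25 tested relatives none rose, 2 fell and the test was not passed by 23, which is 8.00% called against 15.2% over all genes, with a median log2 fold change of -0.05. Mettl24, a little-studied gene, stood at 1.43 and 1.10 CPM in the WT libraries and at 0 counts in both KO libraries, at least 53.5-fold lower (edgeR adjusted p = 0.0117). Mettl26 fell 1.59-fold, its mean going from 34.1 ± 3.19 CPM in WT to 21.4 ± 1.42 CPM (edgeR adjusted p = 0.0202), and did not pass when either KO library was left out (edgeR adjusted p 0.126 at most). The m6A writer subunits Mettl3 (20.0 and 17.8 CPM, edgeR adjusted p = 0.483) and Mettl14 (21.7 and 21.2 CPM, edgeR adjusted p = 0.874) did not pass. Those 2, like most of the list, act on nucleic acids or proteins, while thiols are the substrates given above for human METTL7A and METTL7B.

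Enzymes that methylate small molecules, as the Mettl7 proteins do, changed in 1 of 12 tested genes (8.33%, against 15.2% of all tested genes), with a median log2 fold change of 0.14. As3mt, which methylates arsenic, fell 1.64-fold (WT 44.3 ± 0.0696, KO 27.0 ± 0.567 CPM, edgeR adjusted p = 0.00682) and failed to pass when either KO library was left out (edgeR adjusted p 0.0610 at most). Of 16 tested genes of the methionine and S-adenosylmethionine cycle, which supplies the methyl donor, 1 rose, none fell and 15 did not pass (6.25% called, against 15.2% of all, median log2 fold change 0.00). The gene that rose was Mtap, of the methionine salvage pathway (13.5 ± 0.986 to 19.3 ± 0.643 CPM, edgeR adjusted p = 0.0417), and it lost its call without any of the 4 libraries in turn (edgeR adjusted p up to 0.210).

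Genes for the disposal of sulfide and thiols, the substrates of the family, changed in both directions. Among 16 that were tested, 2 rose, 2 fell and 12 did not pass (25% called, against 15.2% of all, median log2 fold change 0.07). The 4 calls became 7 without WT replicate 1 and 7 without WT replicate 3. Selenbp1, a methanethiol oxidase, fell 2.68-fold, with 805 and 827 CPM in the WT libraries against 296 and 313 CPM in those of KO (edgeR adjusted p = 0.000281, log2 fold change -1.42 with an SE of 0.0554). Methanethiol is the product of sulfide methylation. The rhodanese gene Tst, whose enzyme moves sulfur between thiols, fell 1.59-fold (WT 139 ± 4.02, KO 87.5 ± 3.0 CPM, edgeR adjusted p = 0.00364). Both also passed whichever library was left out. Thioredoxin reductase Txnrd1 (1.25-fold, edgeR adjusted p = 0.0207) and the mitochondrial sulfide oxidase Sqor (1.22-fold, edgeR adjusted p = 0.0276) rose, and neither passed when either KO library was left out (edgeR adjusted p 0.192 at most, for Sqor).

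Lipid droplet genes, whose products share the organelle with the Mettl7 proteins, rose in 5 of 26 tested members, fell in 2 and did not pass in 19 (26.9% called, against 15.2% of all, median log2 fold change 0.07). The 7 calls became 4 without Smad4 KO replicate 1, and 11 by DESeq2. Rdh10, a retinol dehydrogenase, rose 1.78-fold (39.5 ± 0.930 to 70.5 ± 3.67 CPM), Cideb, which enlarges droplets, 1.60-fold (55.8 ± 0.636 to 89.4 ± 2.59 CPM) and Dgat2, which makes triglyceride, 1.65-fold (59.7 ± 1.61 to 98.3 ± 4.75 CPM). The edgeR adjusted p of these 3 ran from 0.00320 to 0.00378. These 3, and the lipase gene Mgll (33.7 to 60.6 CPM), kept their calls without each library in turn. Hsd17b13 rose too, and Nsdhl and Plin2, which coats droplets, fell, and each of these lost its call without Smad4 KO replicate 1 (edgeR adjusted p up to 0.231, for Plin2).

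The tissue label was checked against markers. The 12 epithelial markers summed to 19887 and 20709 CPM in WT and 20435 and 21132 CPM in KO. Of these, 5 rose (Cdx2, Cldn7, Epcam, Krt18 and Krt20), 1 fell (Krt19) and 6 did not pass (50% called, against 15.2% of all tested genes), and without a library in turn Krt20 alone kept its call in each of the 4 fits. Epcam was at 1645 ± 41.4 and 2024 ± 146 CPM (edgeR adjusted p = 0.0320, up to 0.175 without WT replicate 1 or either KO library). Neutrophil markers moved against Mettl7a2 and Mettl7a3: 6 of 7 tested rose (85.7%, against 8.83% of all tested genes). Their summed level ran from 103 to 130 CPM over the WT libraries and from 431 to 442 CPM over those of KO. Most of that sum was Ly6g (105 ± 16.2 and 324 ± 7.53 CPM), and Elane was at 0 in all libraries. Among the neutrophil markers that rose, Mmp8 and Cxcr2 lost their calls when Smad4 KO replicate 2 was left out. Of macrophage and dendritic cell markers 4 of 10 rose, against 8.83% of all tested genes, and the median log2 fold change of the list was 1.34. These were Itgax, Itgam, Csf1r and Lyz2, of which Lyz2 alone kept its call in all 4 such fits. The sums were 180 to 198 CPM in WT and 186 to 192 CPM in KO. Most of each sum was Cd14 (170 ± 15.5 and 135 ± 2.04 CPM, edgeR adjusted p = 0.0550), so the near-equal sums do not describe the other markers of the list. Of fibroblast markers 2 of 9 rose (Fbln1, and Dcn, which kept its call in 1 of 4 fits without a library), with sums of 44.8 to 50.1 and 75.0 to 84.4 CPM, and Fbln1 was the highest (10.0 ± 0.400 and 31.4 ± 4.67 CPM). Sums for T cells (3.46 to 4.54 and 9.62 to 11.0 CPM, 1 of 6 rose, Cd4, whose call was lost in all 4 such fits), endothelium (6.24 to 7.88 and 6.82 to 8.32 CPM, 0 of 5 changed), smooth muscle (2.52 to 3.84 and 2.85 to 4.86 CPM, 0 of 5) and adipocytes (2.47 to 3.30 and 4.03 to 4.84 CPM, 0 of 1, with Adipoq, Lep, Plin1, Retn and Cfd at 0) were low. The shares that rose were 22.2% of tested fibroblast and 16.7% of tested T cell markers, against 8.83% of all tested genes. No tested marker of endothelium, smooth muscle or adipocytes changed, against 15.2% of all tested genes. The B and plasma cell sum of 225 to 238 CPM in WT and 259 to 277 CPM in KO was almost all Sdc1, which epithelium expresses too (231 ± 9.16 and 267 ± 13.1 CPM). The 7 tested distal colon markers all fell (100%, against 6.40% of all tested genes), and earlier results of these data had shown that list to differ. Their sum was 559 to 589 CPM in WT and 97.2 to 99.6 CPM in KO. The part of these cell types and of colon region in the levels of the Mettl7 genes was not tested.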

How the data were processed

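The authors deposited a table of raw whole-number counts for 31227 Ensembl gene IDs in 2 WT and 2 Smad4 KO libraries of colonic epithelial cells, all from mice given DSS. Library totals were 42577920 to 67927291, so that 1 count stood for 0.0147 to 0.0235 CPM. The submitters' processing notes list FastQC 0.19.7, HISAT2 2.1.0, StringTie 1.3.3b, SAMtools 1.9 and GRCm38 (mm10). No source used here gives the strand setting, the read length, the annotation release or what was done with reads that fit more than 1 gene. The notes name StringTie and no read counter, so whether the values are direct read counts is not known. The floor and the intervals for counting error treat them as direct read counts.

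Columns were matched to libraries by title (0 left over). Symbols came from GENCODE M21, which named 31130 IDs; the other 97 were kept in the fit under their IDs. The filterByExpr function of edgeR 4.0.16 (R 4.3.3) left 15838 genes, 4 of them the members. These were scaled by TMM and fitted with a single term for genotype, and p-values of the quasi-likelihood F test were adjusted by Benjamini-Hochberg over all 15838 (threshold 0.05). The fit was tested on simulated data: most 4-fold changes were recovered, and the share of false calls was above the threshold in each run, so single calls near it are weak. For the sum of the Mettl7a copies their rows were added and the whole table was refitted. CPM uses the TMM-scaled totals, and the floor is 3 counts over a group. The alternatives were: size factors of DESeq2 1.42.0 in edgeR, the Wald test of DESeq2 with its own size factors (scaling and test changed together), upper-quartile scaling, unscaled totals, no filter or at least 1 CPM in 2 libraries, limma-voom (limma 3.58.1), a prior count of 2, other distances for neighbours, and each library left out. Sequences were compared position by position or aligned with Biopython 1.88.

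The members, lists, tests and alternatives were chosen with earlier results of these data known. Genes named beside the members were those that overlap them, up to 4 of the closest tested neighbours per locus and any that passed, up to 3 of smallest p per pathway list, the 5 most like Mettl7a2, Smad4, Epcam and the most abundant marker of each cell type. Mettl3, Mettl14, Sqor, Higd1c and Gm20441, Hsd17b13, Mgll, Nsdhl and Plin2, the other markers that passed, and the 3 genes of the closing section, were chosen after their values were seen.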

Additional observations from a re-analysis of the deposited data

How the results depend on the processing

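The number of genes that differed between the genotypes was 2412 and ran from 975 to 2573 when a library was left out; the low values were without Smad4 KO replicate 1 (978) and without Smad4 KO replicate 2 (975). The log2 fold change of the summed Mettl7a copies was -0.89, and -1.01 to -0.78 without a library in turn; with Mettl7a2 and Mettl7a3 alone in the sum it was -9.27, since Mettl7a1 was then left out. It stayed negative in each of the 14 alternatives. Of the neighbours of the members 5 passed, 3 within 100 kb and 9 within 500 kb, where fewer or more genes were tested, and 1 to 5 without a library in turn: 2 without WT replicate 3, 2 without Smad4 KO replicate 1 and 1 without Smad4 KO replicate 2. Of the 5 pathway lists together 15 genes passed, 24 by DESeq2 and 8 to 21 without a library in turn. The low of 8 was without Smad4 KO replicate 1, and the cause was not tested. The lists held 25, 12, 16, 16 and 26 tested genes. Of these 8.00%, 8.33%, 6.25%, 25% and 26.9% were called in the main fit, against 15.2% of all tested genes. By DESeq2 the calls over all genes rose too, from 2412 to 3446. All 7 distal colon markers passed in each of the 6 alternatives run for them. The log2 fold change of Mettl7b was 0.58, and 0.52 with library totals. A fit without a library leaves a genotype with a lone library, which is assumed to vary like the other group. The labels do not pair WT libraries with KO libraries, so no paired analysis was run.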

Other observations

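The reverse of the pattern of Mettl7a2, at least 5 CPM in both KO libraries and under 0.1 CPM in both WT libraries, was seen in 3 of 10448 genes (0.0287%). These were an entry of Sept2, a septin, with 109 and 112 CPM in KO and no count in WT, the gene model Gm20716 with 31.1 and 61.6 CPM in KO and no count in WT, and Prl2a1, of the prolactin family, with 8.03 and 8.83 CPM in KO and 0.0882 and 0 CPM in WT. All 3 were chosen after their values were seen, and they lie on chromosomes 1, 2 and 13. The Sept2 values are those of that entry alone and not of Sept2 as a whole. A shift of reads between overlapping entries was not tested.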
